A study of Mus musculus with 2 samples.

Results

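Leukocytes leave the blood through molecules displayed by the endothelium. The genes described here are 7 such molecules, the selectins Selp and Sele, the immunoglobulin superfamily members Icam1, Icam2 and Vcam1, the chemokine-binding receptor Ackr1 and the clotting factor carrier Vwf. They were chosen by gene symbol among the 32285 genes counted in each library, and all 7 were found. Their unique molecular identifiers (UMIs, 1 per captured transcript) were followed across endothelial subtypes, mural cells and the other mononuclear cells of mouse limb muscle.

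Single-cell RNA-seq was performed on live mononuclear cells sorted by flow cytometry from limb muscle after lysis of red cells, with 1 droplet library from aging mice given the vehicle DMSO and 1 from mice given Maraviroc (MVC). The study gave MVC to ask whether it lowers senescence and inflammation in aging muscle. Per the study's methods, Maraviroc was injected intraperitoneally into aged C57BL/6 mice. How many mice entered each library and their sex are not given in the sources used here. The 2 groups are therefore 2 single libraries with no replicates, so no difference between them was tested, and every 95% interval below covers counting error only.

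After filtering, 5437 DMSO and 5454 MVC cells remained, with medians of 5802 and 5195 UMIs per cell. Cells were grouped without using the 7 genes, and groups were called "X-like" from marker genes. Endothelial (EC-like) cells numbered 2037 in DMSO and 1678 in MVC and expressed all 13 endothelial markers in both. Among them, 199 and 186 cells were venous EC-like (median depth 9278 and 7475 UMIs), 307 and 317 arterial EC-like (5871 and 5108 UMIs), and 289 and 403 capillary EC-like (2971 and 2999 UMIs). The other EC-like subclusters (2014 cells), and 2 clusters of low UMI content that carried endothelial markers (clusters 8 and 15), stayed unnamed. The summed level of the capillary markers differed between the libraries, at 30116 CPM in DMSO and 19716 CPM in MVC within the capillary EC-like cells. CPM is the number of UMIs of a gene per 1000000 UMIs of the group of cells in 1 library. Likely doublets made up 4.34% of DMSO and 4.36% of MVC cells and were kept, and 8 of the kept barcodes occurred in both libraries.

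Recruitment of leukocytes proceeds in steps along postcapillary venules. P-selectin (Selp) and E-selectin (Sele) catch passing leukocytes through sialylated ligands such as PSGL-1, and the cells roll. ICAM-1 and ICAM-2 then engage the beta-2 integrins and VCAM-1 the integrin VLA-4, and the cells stop. ACKR1 binds inflammatory chemokines without signalling through G proteins and is a known feature of venules. VWF is the main cargo of Weibel-Palade bodies, the storage granules in which endothelial cells also keep P-selectin. VCAM-1 is in addition a surface marker used to sort satellite cells (MuSCs), the stem cells of muscle.

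The genes lie at several places in the mouse genome (GRCm38). Sele (chr1:164048234-164057677) and Selp (chr1:164115264-164150026) lay 57.6 kb apart on the forward strand. Ackr1 (chr1:173331886-173333750, reverse strand) lay 9.18 Mb further along. Icam1 was at chr9:21015985-21028817, Icam2 at chr11:106377656-106388075, Vcam1 at chr3:116109949-116129688 and Vwf at chr6:125546774-125686679. Because induction of these molecules by cytokines is classically ascribed to NF-kB and AP-1, and endothelial expression to ETS factors, the proximal promoters are shown for the 4 members with an entry in the RefSeq promoter table (GRCm38.p6), from 250 bases before to 50 after the start. The windows are chr1:164115014-164115313 (forward) for Selp, chr1:164047984-164048283 (forward) for Sele, chr9:21015690-21015989 (forward) for Icam1 and chr1:173333454-173333753 (reverse) for Ackr1, and capitals mark each match on either strand to the letters GGNNNTTCC (NF-kB), TGANTCA (AP-1) or GGAAG (ETS).
Selp: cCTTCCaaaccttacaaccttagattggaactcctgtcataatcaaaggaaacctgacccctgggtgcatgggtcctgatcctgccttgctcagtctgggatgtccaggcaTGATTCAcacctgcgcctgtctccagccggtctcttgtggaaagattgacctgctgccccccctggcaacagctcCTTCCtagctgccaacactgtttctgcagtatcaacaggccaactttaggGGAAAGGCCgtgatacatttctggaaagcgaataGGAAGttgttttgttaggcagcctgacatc
Sele: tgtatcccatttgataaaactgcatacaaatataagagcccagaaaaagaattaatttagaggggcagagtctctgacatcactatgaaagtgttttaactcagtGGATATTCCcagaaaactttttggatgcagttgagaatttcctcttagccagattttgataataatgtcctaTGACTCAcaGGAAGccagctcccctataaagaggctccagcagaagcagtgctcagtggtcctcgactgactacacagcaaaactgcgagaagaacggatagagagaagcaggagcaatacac
Icam1: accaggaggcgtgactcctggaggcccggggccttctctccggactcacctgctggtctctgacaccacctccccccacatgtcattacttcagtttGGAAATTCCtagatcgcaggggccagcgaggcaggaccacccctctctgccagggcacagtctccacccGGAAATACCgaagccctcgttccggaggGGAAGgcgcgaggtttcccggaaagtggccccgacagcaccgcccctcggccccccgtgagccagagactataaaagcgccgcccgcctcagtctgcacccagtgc
Ackr1: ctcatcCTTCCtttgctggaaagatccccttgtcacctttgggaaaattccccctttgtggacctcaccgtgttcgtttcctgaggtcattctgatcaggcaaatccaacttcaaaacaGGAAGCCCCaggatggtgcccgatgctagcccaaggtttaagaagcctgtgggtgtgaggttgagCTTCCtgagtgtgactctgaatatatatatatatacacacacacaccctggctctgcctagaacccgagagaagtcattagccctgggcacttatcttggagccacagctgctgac

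A GGNNNTTCC match was found in all 4 windows, at 14 bases before the start in Selp, 145 before it in Sele, 153 and 84 before it in Icam1 and 131 before it in Ackr1. Such a match occurred in 18.5% of the 32851 RefSeq promoter windows of the same length. The AP-1 letters were found in the selectins, 139 bases before the start of Selp and 73 before that of Sele, against 7.81% of all windows. ETS letters occurred in all 4 windows and in 71.4% of all windows, and in Ackr1 the ETS match 131 bases before the start lies inside the NF-kB match. The starts are those of RefSeq, and for Icam1 and Ackr1 they differ from the gene ends given above. The Ackr1 window, with all its matches, lies almost wholly inside the gene span given above. These are matches of letters, and whether a factor binds there was not measured.

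The members fell into different patterns across the tissue. EC-like cells, lymphatic cells not counted, held 90.3% of all Selp UMIs, 90.0% of Sele, 87.8% of Vwf and 80.5% of Icam2. The share was lower for Ackr1 (67.3%), Vcam1 (59.3%) and Icam1 (52.2%), so the label of endothelial adhesion genes covered only part of the RNA of these 3. The heat map of levels by class shows 3 members with a narrow venous peak, and Icam1 and Vcam1 spread over stromal cells as well.

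**Figure D1:**
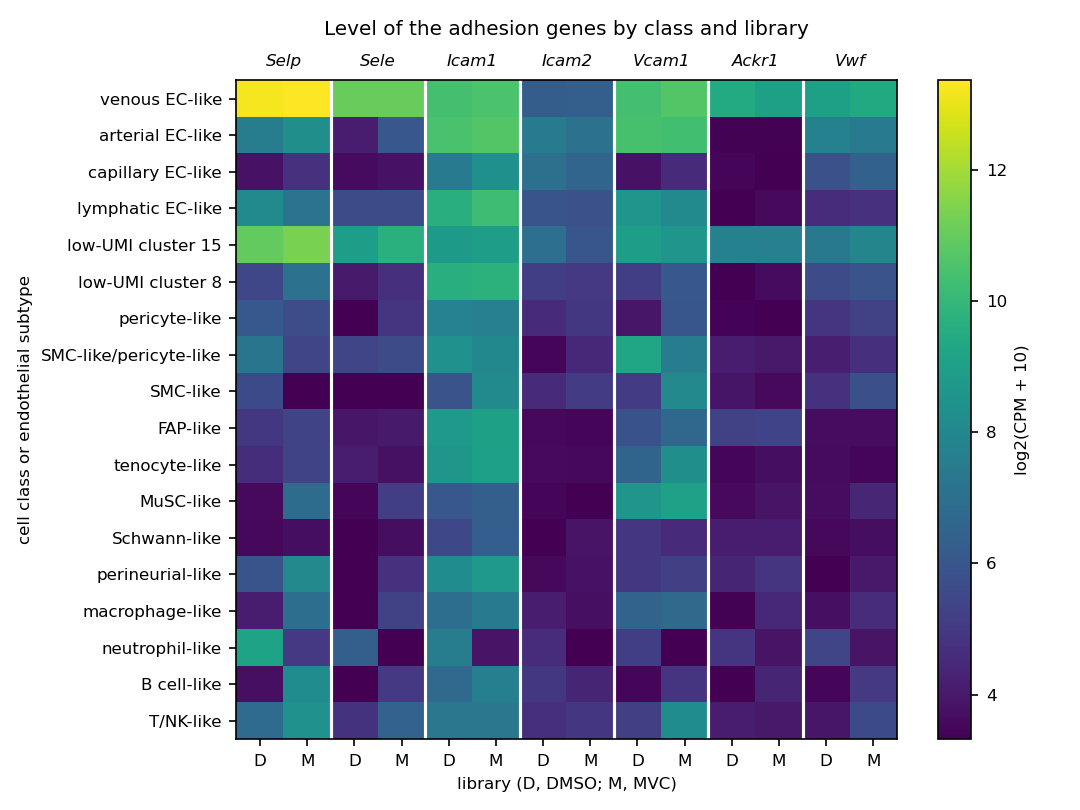
Level of the 7 genes as log2(CPM + 10) by cell class or endothelial subtype (rows) in the DMSO (D) and MVC (M) library (columns). Selp (9608 and 10525 CPM), Sele and Ackr1 were highest in venous EC-like cells, whereas Icam1 was also present in fibro-adipogenic progenitors (FAP-like) and tenocyte-like cells.

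Selp was concentrated in venous cells. It reached 9608 CPM (9468 to 9749) in DMSO and 10525 CPM in MVC, a ratio of 1.10 (1.07 to 1.12), and the 385 venous EC-like cells held 86.4% of all Selp UMIs. A venous cell carried between 0 and 455 Selp UMIs in DMSO with a median of 71, and between 0 and 412 with a median of 58 in MVC. The distributions of both libraries overlapped over nearly their whole range, while total depth per venous cell was lower in MVC (7475 against 9278 UMIs). The unnamed low-UMI cluster 15 came next at 1944 and 2567 CPM, and its range did not overlap that of the venous cells. After each cell was thinned to 2000 UMIs, Selp was detected in 91.5% of DMSO and 86.0% of MVC venous cells, against 0.515% of Schwann-like cells (median depth 4919 UMIs), where its level was lowest.

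Arterial EC-like cells contained a small Selp-expressing group. Their level was 179 CPM in DMSO and 312 CPM in MVC, a ratio of 1.74 (1.52 to 2.0). However, 3 cells held 63.7% of the arterial Selp UMIs in MVC, and without the 3 highest cells of each library the log2 ratio of 0.77 turned to -0.21. Nearly all of these UMIs came from arterial subcluster 5 (leading genes Mgp, Tnfaip2 and Efna5), whose next best class was venous, at 338 and 799 CPM and in 20.6% and 19.6% of its cells. The share of cells was thus close in both libraries while the level differed. Subcluster 5 made up 136 of 307 arterial cells in DMSO and 102 of 317 in MVC. Its summed venous marker level was 2362 and 1924 CPM, against 1084 and 746 CPM in arterial subcluster 4 and 4853 and 4506 CPM in venous EC-like cells. Arterial subcluster 8, whose next best class was also venous, lay between subclusters 4 and 5 at 1693 and 1127 CPM. Capillary EC-like cells were nearly free of Selp, with 4 UMIs in 289 DMSO and 22 UMIs in 403 MVC cells. The thinned shares there, 1.23% and 2.22%, lay inside the interval of the Schwann-like background (0.013% to 2.84%).

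Sele followed Selp closely. Venous EC-like cells had 2065 CPM in DMSO and 2074 CPM in MVC, a ratio of 1.0 (0.958 to 1.05), and held 85.9% of all Sele UMIs. The median was 13 UMIs per venous cell in DMSO and 9 in MVC, with the highest cells at 95 and 169. Thinned shares were 75.4% and 68.7%, a difference of -6.66 percentage points with an interval (-15.6 to 2.37) that includes 0. In arterial EC-like cells, 13 DMSO and 102 MVC UMIs gave 6.95 and 55.9 CPM (ratio 8.04, 4.50 to 15.6), of which 3 cells held 84.6% and 79.4%. Smooth muscle (SMC-like) cells had 0 Sele UMIs in 110 cells, and 0 of 109 cells after thinning allows a share of up to 3.33%.

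**Figure D2:**
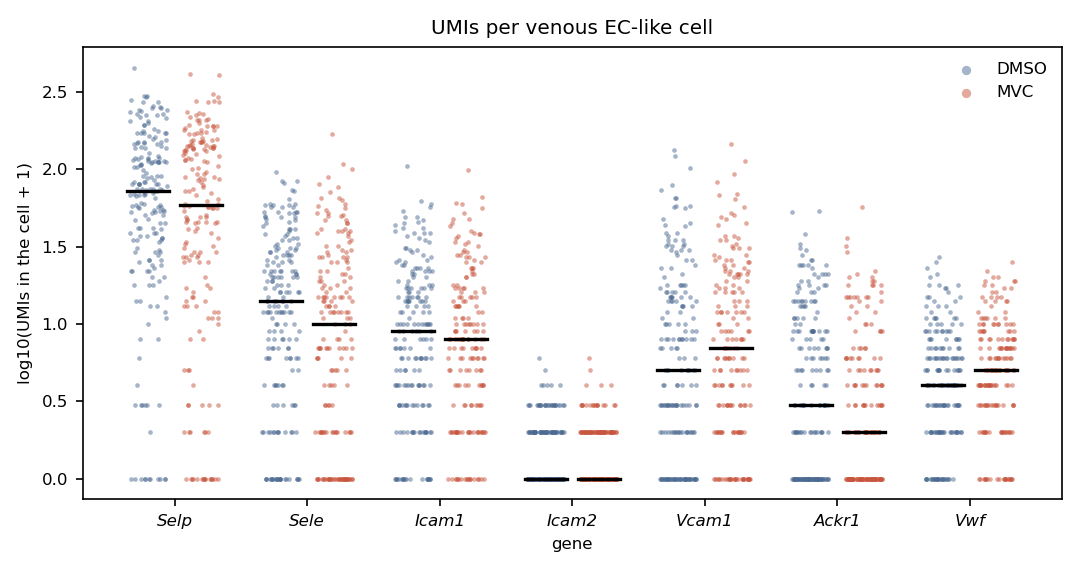
UMIs of each member in every venous EC-like cell, as log10(UMIs + 1), with 1 point per cell (199 DMSO, 186 MVC) and a bar at the median. The Selp medians of 71 and 58 UMIs stand far above 0 in both libraries, whereas the Icam2 median is 0 in both.

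Vwf was higher in venous than in other endothelial cells but less confined to them. The venous level was 508 CPM in DMSO and 668 CPM in MVC (ratio 1.32, 1.2 to 1.44), and venous cells held 54.5% of its UMIs. Arterial EC-like cells followed at 202 and 168 CPM (ratio 0.832, 0.713 to 0.970), and capillary EC-like cells at 46.3 and 75.7 CPM (ratio 1.64, 1.14 to 2.39). The order venous, arterial, capillary was thus the same in both libraries. In venous cells thinned to 2000 UMIs, Vwf was detected in 50.8% of DMSO and 64.8% of MVC cells, a difference of 14.1 points (4.07 to 23.6). Without thinning the shares were 86.4% and 88.7%, and the difference was 2.28 points. In tenocyte-like cells, the lowest class, the thinned share was 0.107% at a median depth of 7831 UMIs.

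Within endothelium Ackr1 was the member most restricted to veins. Venous EC-like cells contained 1286 UMIs in DMSO and 786 in MVC, or 688 and 515 CPM, a ratio of 0.748 (0.683 to 0.818). The median was 2 UMIs per cell in DMSO and 1 in MVC, and the highest cells carried 53 and 56. Thinned shares were 46.7% and 39.7%, a difference of -7.07 points (-16.8 to 2.92), an interval that includes 0. Arterial EC-like cells held 1 UMI in each library, and capillary EC-like cells 1 UMI in DMSO and 0 in MVC, which allows at most 2.32 CPM (3 counts). Lymphatic EC-like cells had 0 UMIs in DMSO and 1 in MVC. Low-UMI cluster 15, which stayed unnamed, came next after the venous cells at 205 and 196 CPM. By its level, Ackr1 thus set venous EC-like cells apart from the other named endothelial groups in both libraries. Many venous cells showed no Ackr1 after thinning.

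Outside endothelium, 25.8% of Ackr1 UMIs were in FAP-like cells, the fibroblast-like progenitors of muscle, at 29.6 CPM in DMSO and 31.1 CPM in MVC (ratio 1.05, 0.911 to 1.21). Thinned shares were 6.18% and 5.50% at median depths of 10408 and 9254 UMIs, against 0 of 457 pericyte-like cells (up to 0.804%, median depth 3725 UMIs), and doublets held 7.89% and 9.41% of these UMIs. The level was highest in FAP cluster 19, led by Sbsn, Dmkn and Sv2c and with 4 of 11 FAP markers raised, at 48.9 CPM (38.1 to 61.7) in 85 DMSO cells and 95.2 CPM (78.7 to 114) in 95 MVC cells, a ratio of 1.95 (1.44 to 2.66). Clusters 16 (Pi16, Tmem100) and 1 (Ptx3, Ifi205) had 37.4 and 46.7 CPM, and 34.6 and 41.0 CPM. Clusters 11 (Gdf10, C7) and 2 (Cxcl14, Smoc2) were lower, at 18.1 and 9.19 CPM, and 14.3 and 8.56 CPM. In these 2 the MVC value lay below the DMSO value, whereas in the other 3 it lay above.

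Ackr1 shares sequence with its neighbour. The gene Cadm3, a cell adhesion molecule, overlaps it by 493 bases on the same strand, and 361 exon bases, or 25.7% of those of Ackr1, belong to both. In FAP-like cells Cadm3 was present at 115 CPM in each library, and it was detected in 73.2% (DMSO) and 81.7% (MVC) of the FAP-like cells with Ackr1, against 24.7% and 24.2% of those without. Across the FAP clusters Cadm3 had the same order as Ackr1 in both libraries. It was at 186 and 280 CPM in cluster 19, 134 and 229 CPM in cluster 16, and 126 and 145 CPM in cluster 1. Clusters 11 and 2 had 76.0 and 69.9 CPM, and 74.0 and 34.2 CPM. In each FAP cluster Cadm3 and Ackr1 thus differed between the libraries in the same direction. In venous EC-like cells Cadm3 was at 58.9 and 74.6 CPM, higher in MVC where Ackr1 was lower. Whether reads of Cadm3 were counted for Ackr1 in FAP-like cells was not tested, and the Ackr1 values in FAP-like cells are uncertain for this reason.

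Icam1, the ligand of the beta-2 integrins LFA-1 and Mac-1, was the member found in most cells (51.2% of all kept cells). Arterial EC-like cells had 1422 CPM in DMSO and 1623 CPM in MVC (ratio 1.14, 1.08 to 1.2), and venous EC-like cells 1351 and 1447 CPM (ratio 1.07, 1.01 to 1.13). Their ranges overlapped, and the unnamed EC-like subclusters (1303 and 1721 CPM), whose makeup differed between the libraries (subcluster 1 had 581 DMSO and 154 MVC cells, the interferon-marked subcluster 7 had 46 and 162), overlapped both. Lymphatic EC-like cells followed at 784 and 1212 CPM (ratio 1.55, 1.37 to 1.74), and after thinning this log2 ratio of 0.62 was 0.21. Capillary EC-like cells had the lowest level of the named endothelial groups, 173 CPM in DMSO and 317 CPM in MVC, a ratio of 1.84 (1.53 to 2.21). The unnamed subclusters also carried capillary markers, with a summed level of 20745 and 12243 CPM, against 14177 and 7996 CPM in arterial EC-like cells. The low Icam1 level therefore covers the named capillary group and not all cells with capillary markers. With endothelial cells clustered more coarsely, the capillary log2 ratio of 0.84 became 0.23.

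Stromal cells held a large part of Icam1. FAP-like cells had 416 and 508 CPM (ratio 1.22, 1.18 to 1.26) and 28.0% of all Icam1 UMIs, with thinned shares of 34.8% and 38.4%. The FAP clusters differed widely, with 504 and 615 CPM in cluster 1, 525 and 615 in cluster 2 and 396 and 462 in cluster 11, but 46.7 and 59.0 in cluster 16 and 60.7 and 107 in cluster 19. The Pi16-expressing FAP clusters 16 and 19 were therefore low in Icam1 in both libraries. This was the reverse of their order for Ackr1, whose values there are uncertain because of the overlap with Cadm3. Tenocyte-like cells had 391 and 505 CPM (ratio 1.29, 1.21 to 1.38). MuSC-like cells had 56.9 and 71.7 CPM, and Schwann-like cells, lowest over both libraries, 35.8 and 70.2 CPM.

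Icam2, a constitutive ligand of LFA-1, had few UMIs (1771 in all) and a pattern of its own. It was highest in arterial EC-like cells at 164 CPM in DMSO and 123 CPM in MVC, a ratio of 0.753 (0.631 to 0.898), followed by capillary EC-like cells at 119 and 88.1 CPM (ratio 0.741, 0.566 to 0.969). Venous EC-like cells had 67.4 and 72.0 CPM (ratio 1.07, 0.819 to 1.39). Thus veins, the site of the selectins, were not the site of the highest Icam2 level. The thinned share of arterial cells with Icam2 was 27.6% in DMSO and 17.3% in MVC, a difference of -10.3 points (-16.9 to -3.64). MuSC-like cells had 1 Icam2 UMI in 401 cells.

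Vcam1 was shared by veins and part of the arteries. Venous EC-like cells had 1300 CPM in DMSO and 1622 CPM in MVC (ratio 1.25, 1.18 to 1.32), and arterial EC-like cells 1367 and 1256 CPM (ratio 0.919, 0.868 to 0.973). The 2 ranges overlapped, and each subtype held 28.6% and 28.3% of all Vcam1 UMIs. In veins the thinned share of cells with Vcam1 was 56.3% in DMSO and 70.9% in MVC, a difference of 14.7 points (4.95 to 23.9). Doublets held 2.59% and 7.91% of the venous Vcam1 UMIs. In arteries the thinned shares were 32.6% and 24.9%, a difference of -7.64 points (-14.8 to -0.409), and the 10% of cells with most Vcam1 held 72.3% of its UMIs in DMSO and 84.1% in MVC. Arterial subcluster 5, the one with Selp, had 2503 and 3067 CPM with Vcam1 in 69.1% and 68.6% of its cells, whereas arterial subcluster 8 (Slc8a1, Edn1) had 295 and 195 CPM and subcluster 4 (Thsd7b, Olfm2) 35.8 and 54.8 CPM. Capillary EC-like cells had 4 UMIs in DMSO and 17 in MVC.

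Outside endothelium, MuSC-like cells had Vcam1 at 368 CPM (333 to 405) in DMSO and 532 CPM (499 to 566) in MVC, a ratio of 1.45 (1.29 to 1.63). It was detected in 62.3% and 69.8% of MuSC-like cells, or 34.8% and 44.7% after thinning, a difference of 9.96 points whose interval (-0.223 to 19.6) includes 0. Cells of the mixed SMC-like/pericyte-like cluster, with no marker of either class among its 10 leading genes, had 601 and 177 CPM (ratio 0.294, 0.231 to 0.370). This was above the MuSC-like level in DMSO and below it in MVC, with 3 cells holding 38.1% and 40.7%. However, the log2 ratio of -1.71 became -0.18 when clusters were drawn after centring each gene within its library. Pericyte-like cells were low in Vcam1, at 5.22 and 54.2 CPM, with 3 cells holding 82.4% of the UMIs in MVC. Their Icam1 level of 209 and 195 CPM came mostly from pericyte-like cluster 24, of which 78.9% were called doublets, and in the larger pericyte-like cluster 6 it was 70.9 and 56.8 CPM.

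Tenocyte-like cells differed in Vcam1 between the libraries as well. Their level was 84.1 CPM (75.5 to 93.4) in DMSO and 307 CPM (291 to 324) in MVC, a ratio of 3.66 (3.25 to 4.12), with doublets holding 8.0% and 5.11% of the UMIs. Thinned shares were 6.65% and 14.1%, a difference of 7.43 points (3.53 to 11.3), against 0.344% of B cell-like cells (median depth 5136 UMIs). Cluster 7, which expressed Angptl7, Fmod, Wif1 and Kera, had 44.2 and 374 CPM (ratio 8.46, 6.77 to 10.7), with Vcam1 in 5.45% and 17.0% of thinned cells. Cluster 5, led by Col22a1, Thbs4 and Tac1, had 120 and 246 CPM (ratio 2.06, 1.77 to 2.39). In both clusters 3 cells held between 34.1% and 38.7% of the UMIs in each library. Over the alternatives tried, the log2 ratio of 1.75 in tenocyte-like cells stayed between 1.73 and 1.94.

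FAP-like cells also had more Vcam1 in MVC, at 48.0 CPM in DMSO and 90.9 CPM in MVC (ratio 1.89, 1.72 to 2.09), and in each of the 5 FAP clusters the MVC value was the higher one. Thinned shares were 6.88% and 8.17%, and the log2 ratio of 0.80 became 0.32 after thinning and 0.22 with clusters centred within library. Doublets held 3.57% of these UMIs in DMSO and 14.5% in MVC.

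**Figure D3:**
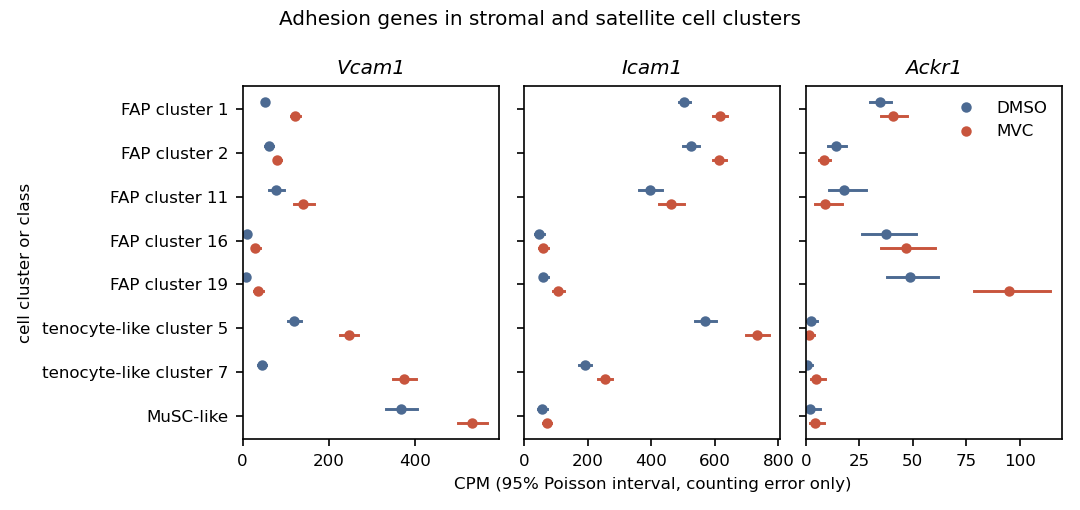
Level (CPM, with 95% Poisson intervals for counting error) of Vcam1, Icam1 and Ackr1 in the FAP-like and tenocyte-like clusters and in MuSC-like cells, for DMSO and MVC. Vcam1 in tenocyte-like cluster 7 lies at 44.2 CPM in DMSO and 374 in MVC, and FAP clusters 16 and 19 are low in Icam1 and high in Ackr1. The Ackr1 values in FAP clusters are uncertain because Ackr1 shares exon bases with Cadm3.

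Next, the members were followed within single venous cells, each thinned to 2000 UMIs. A venous cell showed a median of 4 of the 7 genes in each library, against 1 in arterial and 0 in capillary EC-like cells. Of the DMSO cells with Sele, 149 of 150 also had Selp, as did 120 of 123 in MVC. Selp was found in 92 of 93 Ackr1-positive and 90 of 106 Ackr1-negative cells in DMSO, and in 65 of 71 and 89 of 108 in MVC. Vcam1 was found in 69 of the 93 Ackr1-positive DMSO cells against 43 of the 106 cells without Ackr1, and in 57 of 71 against 70 of 108 in MVC. In arterial EC-like cells Selp went with Vcam1, and Ackr1 was nearly absent. Vcam1 was detected in 21 of 26 Selp-positive DMSO cells and 77 of the 275 others, and in 17 of 21 and 58 of 280 in MVC. Ackr1 was seen in 0 of the 26 and 1 of the 275, and in 0 of the 21 and 0 of the 280. That is too few to show whether it goes with Selp there. These counts are descriptions without a test.

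For the comparison of MVC with DMSO, a gene was counted as past the threshold when its log2(CPM + 10) differed by more than a 1.5-fold, which is a size and not a test, among genes with at least 20 UMIs. In EC-like cells as a whole 0 of 7 members were past it, where 2.07% of 13690 genes were. Ratios were 1.22 for Selp, 1.12 for Sele, 1.14 for Icam1, 0.906 for Icam2, 1.28 for Vcam1, 0.809 for Ackr1 and 1.30 for Vwf, and the median log2 ratio of the members was 0.19 against 0.02 for all genes. The summed FAP marker level in EC-like cells was 179 CPM in DMSO and 359 CPM in MVC. The makeup of the EC-like cells differed too. Venous cells were 9.77% of them in DMSO and 11.1% in MVC, and subcluster 1 was 28.5% and 9.18%. The part of either in these ratios was not tested. In venous EC-like cells 0 of 7 were past it, where 10.5% of 8942 genes were, with a member median of 0.10 against -0.06. The genes of leukocyte recruitment in veins thus differed between the libraries by less than a 1.5-fold each, with Vwf and Vcam1 higher and Ackr1 lower in MVC.

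In arterial EC-like cells, Selp and Sele were past the threshold and higher in MVC, 2 of the 6 members that reached 20 UMIs, where 4.04% of 9271 genes were higher. In both genes 3 cells held most of the MVC UMIs, and Sele (13 UMIs in DMSO) reached 20 UMIs in MVC alone, so the count gives no support. In capillary EC-like cells 4 of 5 were past it and higher (Icam1, Selp, Vcam1 and Vwf), where 7.95% of 8717 genes were higher. Selp and Vcam1 reached 20 UMIs there only through the MVC library and lay near background, and the capillary Vwf log2 ratio of 0.61 was 0.05 after thinning. In tenocyte-like cells 2 of 4 were higher (Vcam1 and Selp), where 2.31% of 12226 genes were, and the Selp log2 ratio of 0.75 was -0.0082 without its 3 highest cells per library. In FAP-like cells 1 of 7 was higher (Vcam1), where 1.3% of 14995 genes were.

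**Figure D4:**
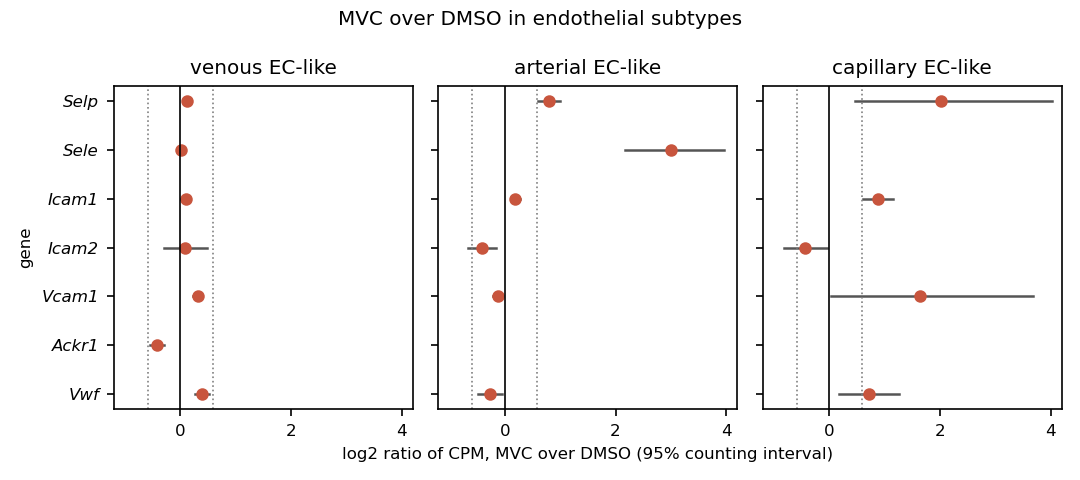
Ratio of MVC to DMSO level, as log2, for each member with its 95% counting interval in venous, arterial and capillary EC-like cells (Ackr1, with at most 1 UMI a library in the latter pair, is left out there, and Sele in capillary cells). Dotted lines mark a 1.5-fold, and all 7 venous points lie between them, whereas arterial Selp and Sele lie to the right.

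Outside endothelium, with lymphatic EC-like cells and the low-UMI clusters also set aside, Selp UMIs lay in few cells. There, 15 DMSO cells with 20 or more Selp UMIs held 85.1% of them and 14 MVC cells 89.2%. Of these cells, 13 and 11 were called doublets, 14 and 12 had Pecam1, and 13 and 12 had Sele. Their median depth was 12886 and 16578 UMIs. Doublets held 77.4% (DMSO) and 88.6% (MVC) of the Selp UMIs in FAP-like cells and 99.4% and 98.8% in T/NK-like cells, and 99.3% of the Vcam1 UMIs of T/NK-like cells in MVC. In venous EC-like cells doublets held 6.04% and 6.47% of the Selp UMIs. In neutrophil-like cells, Selp was at 549 CPM in DMSO and 21.9 CPM in MVC, and doublets held 95.9% of the DMSO UMIs and 0% of the 5 in MVC. Most of the selectin RNA in these classes thus lay in a few cells, the majority with Pecam1. In MuSC-like cells 3 of 5 members were past the threshold and higher (Selp, Sele and Vwf), where 7.02% of 9213 genes were, and 3 cells held between 85.0% and 95.9% of their UMIs in MVC. These 3 members reached 20 UMIs in MuSC-like cells only through the MVC library.

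Platelets and their precursors also make Selp and Vwf. Of the 6 defining platelet markers, 5 were at 0 in venous EC-like cells in each library. The exception was Itga2b, at 17.1 CPM in DMSO and 12.4 CPM in MVC, against 6.81 and 5.26 CPM over all cells. Clec1b, from a wider list of platelet genes, had 3 UMIs in DMSO and 5 in MVC in venous EC-like cells. All 9 T/NK markers were at 0 in venous EC-like cells. Markers of other classes were not all absent there. Their summed levels were 39.1 and 24.2 CPM for neutrophils, 5.89 and 15.1 CPM for macrophages and 3.75 and 2.62 CPM for B cells. FAP markers summed to 70.6 and 121 CPM, and pericyte markers to 46.0 and 55.7 CPM.

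Genes that act with the members were read from lists of related function. Of 14 junction and transmigration genes in EC-like cells, 1 was past the threshold (2.07% of all genes were), the claudin Cldn5 of tight junctions, at 1281 CPM in DMSO and 799 CPM in MVC. In venous EC-like cells 1 of 14 was past it, where 10.5% of all genes were, namely Esam (366 and 226 CPM), a junctional adhesion molecule. In capillary EC-like cells Cldn5 was again lower (1137 and 486 CPM), and Jam3 was higher (50.5 and 86.5 CPM). Cldn5 and Esam were also among the 13 markers used to name EC-like cells.

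Of the 12 genes of Weibel-Palade bodies, 9 were counted in venous EC-like cells and 2 of these were past the threshold, where 10.5% of all genes were. There, Angpt2, an antagonist of the receptor Tie2 stored with VWF, was at 53.0 CPM in DMSO and 15.7 CPM in MVC (ratio 0.297, 0.181 to 0.467), while Myrip, a linker of granules to the motor proteins, was at 46.6 and 81.8 CPM. In arterial EC-like cells 2 of 10 were past it, where 5.8% of all genes were, as the granule membrane protein Cd63 was lower (214 and 120 CPM) and Igfbp7 higher (505 and 859 CPM). In capillary EC-like cells 3 of 10 were past it, where 12.1% of all genes were, and endothelin-encoding Edn1 (136 and 65.7 CPM) and Stx3 (91.6 and 55.6 CPM) were lower. The members of this list thus differed in both directions. Among sialomucins, the endomucin gene Emcn was higher in arterial EC-like cells (184 and 346 CPM).

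In venous EC-like cells, 11 of 13 NF-kB pathway genes were above and 2 below DMSO, with 3 past the threshold, where 10.5% of all genes were, and a list median of 0.28 against -0.06 for all genes. The 3 were the feedback inhibitor Tnfaip3 (90.4 and 154 CPM), Irf1 (208 and 327 CPM) and Relb (114 and 179 CPM). Genes induced by tissue dissociation were likewise mostly higher there, with 15 of 19 above DMSO, a median of 0.33 against -0.06, and 3 past the threshold against the same 10.5%, Egr1 (562 and 1105 CPM), Ier2 (102 and 162 CPM) and Hsph1 (439 and 667 CPM). In arterial EC-like cells 17 of 19 dissociation genes were above DMSO (median 0.40 against 0.02 for all genes) and 5 past the threshold, where 4.04% of all genes were higher, with Fos at 930 and 1837 CPM. In capillary EC-like cells 17 of 19 were below DMSO (median -0.30 against 0.07) and 4 past the threshold, where 4.19% of all genes were lower, with Klf4 at 1022 and 519 CPM. Of the 13 NF-kB pathway genes there, those given, at most 4 by size, went both ways past the threshold, where 12.1% of all genes were. Il1r1 (47.4 and 101 CPM) and Nfkb1 (137 and 233 CPM) were higher, and Nfkbia (660 and 405 CPM) and Rela (57.9 and 32.5 CPM) lower. Il1r1 was also among the markers used to name venous cells. The dissociation genes were not kept out of clustering, and unnamed endothelial subcluster 0 (464 DMSO and 366 MVC cells) was led by Egr1 and Fos. How far the values of the dissociation genes in the named subtypes depend on that split was not tested. The part of dissociation genes in the values of the members was not tested either.

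The ligands on the leukocyte side were present in the same samples. Neutrophil-like cells carried Selplg, which encodes PSGL-1, at 253 CPM in DMSO and 268 CPM in MVC, the Mac-1 subunit Itgam at 1205 and 1387 CPM and the LFA-1 subunit Itgal at 239 and 202 CPM. The VLA-4 subunit Itga4, which pairs with Vcam1, was at 20.4 and 30.7 CPM there, at 220 and 205 CPM in B cell-like cells and at 139 and 400 CPM in T/NK-like cells. These values rest on 65 and 34 neutrophil-like cells and on 194 and 59 T/NK-like cells. Cd44, a ligand of E-selectin on leukocytes, was at 2187 CPM in DMSO and 1905 CPM in MVC in neutrophil-like cells but was not confined to leukocytes. It was at 1289 and 1243 CPM in tenocyte-like, 638 and 755 CPM in MuSC-like and 541 and 559 CPM in FAP-like cells. Venous EC-like cells had far less, at 34.8 CPM in DMSO and 101 CPM in MVC (ratio 2.92, 2.17 to 3.96), and arterial EC-like cells had 70.0 and 41.1 CPM.

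Finally, the genes most alike to each member were sought by Pearson correlation of log2(CPM + 10) over 38 values (19 classes or subtypes in each of 2 libraries) among 8591 genes, as a description, since these values share libraries and depth. Selp was most like Sele (r = 0.93), followed by Plvap (0.88), which encodes the diaphragm protein of fenestrated and venular endothelium, and Csf3 (0.86). Sele was most like Selp, Plvap (0.91) and Csf3 (0.86), and Ackr1 most like Sele (0.85), Plvap (0.80) and Lhx6 (0.79). Icam2 was most like the pan-endothelial gene Pecam1 (0.93), S1pr1 (0.92) and She (0.91), and Vwf most like Tmem252 (0.88), Grrp1 (0.88) and Gbp4 (0.86). Icam1 was most like Tmem173 (0.85), Gja1 (0.84) and Pdlim1 (0.84), and Vcam1 most like Clu (0.82), Slco2a1 (0.78) and Stc1 (0.74). Plvap and Tmem252 were among the 12 markers used to name venous cells. Among the members themselves, the lowest correlation was that of Icam2 with Ackr1 (0.23).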

How the data were processed

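Single-cell RNA-seq was analysed for 1 DMSO and 1 MVC library of sorted live mononuclear cells from mouse limb muscle. The deposited values were raw UMI counts per gene and cell barcode, made by the authors with Cell Ranger 7.0.0 on the mm10 build per the submitters' processing notes, which also name Seurat 5.0.1. Intronic and strand-specific counting were not given in the sources used here, so reads of the antisense genes that overlap Selp, Icam1 and Vcam1 cannot be told apart from theirs. Each library holds 1 sample, and groups were taken from the treatment per the labels.

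The DMSO library held 5812 barcodes with 39150511 UMIs and the MVC library 6047 with 36063575. Barcodes were kept that showed 500 genes or more and no more than 10% of UMIs from mitochondrial genes, as the study's methods state. This left 5437 and 5454 cells, the numbers the study gives. Of the barcodes, 9 occurred in both libraries, 8 after the filter. No correction for free RNA was made.

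For clustering, each cell was brought to a total of 10000 and the natural log of 1 plus the value was taken. With 2000 variable genes, the 7 members left out, 30 principal components and 20 neighbours, cells were clustered by the Leiden algorithm at resolution 1, and EC-like cells were clustered again in the same way. A cluster was called "X-like" when at least 3 markers were raised by a log2 fold of 1 and detected in 20% of its cells, with a margin of 0.5 over the next class. It stayed unnamed when its depth was under the sample median divided by 3 without a marker among its 10 leading genes. These names were made anew and can differ from those of the study for that reason. Likely doublets were ranked against simulated ones (2 per cell, 50 neighbours), called at 0.8% per 1000 cells (236 and 238 cells), kept, and removed in an alternative.

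Levels were UMIs summed per class and library as CPM, with exact Poisson 95% intervals. Shares carried Clopper-Pearson, ratios exact conditional and differences of shares Newcombe intervals. Shares were compared after thinning each cell to 2000 UMIs, which left out 7 MVC venous cells, 6 and 16 arterial, 45 and 87 capillary, 14 and 45 tenocyte-like and 47 and 119 FAP-like cells in DMSO and MVC. A log2 ratio used a pseudocount of 10 CPM, so it understates differences of low genes. A fold past 1.5 on that scale, among genes with at least 20 UMIs, served as a threshold of size, since no test was possible. Alternatives were stricter cells, no doublets, a mean over cells, thinning, centring, a pseudocount of 1, removal of the 3 highest cells, and other clusterings. Scripts were tested on simulated data.

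The 7 members were followed in every class. From the lists, genes past the threshold in EC-like cells or a named subtype are given, at most 4 per list and class by size. A gene that this rule names is not reported here. Of the 15 listed junction genes, 14 were found by symbol and Cd99 was not. The members and the lists were chosen with earlier results of these data known. Gene positions came from the GRCm38 annotation, and promoters from RefSeq (GRCm38.p6), which matched 4 of 7 members. Python 3.11.15, NumPy 2.4.6, SciPy 1.17.1, pandas 2.3.3, scikit-learn 1.9.0, igraph 0.11.9, leidenalg 0.10.2 and matplotlib 3.10.9 were used.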

Additional observations from a re-analysis of the deposited data

How the results depend on the processing

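Of 763 log2 ratios recomputed under an alternative, 702 kept their sign. In EC-like cells all 70 did and 0 passed a 1.5-fold, and in venous EC-like cells 68 of 77 did and 0 passed it. For EC-like cells, the Selp log2 ratio of 0.28 was 0.23 without doublets, 0.41 after thinning and 0.25 with clusters centred within library, that of Sele (0.16) was 0.28 after thinning and 0.089 without the 3 cells with most UMIs, and that of Vcam1 (0.35) was 0.26 without doublets and 0.23 as a mean over cells. For venous EC-like cells, Selp (0.13) was 0.089 without doublets, 0.096 as a mean over cells, 0.20 centred on the median ratio and 0.18 with centred clusters, Sele (0.01) was -0.061 without its 3 highest cells, Icam1 (0.10) was -0.016 as a mean over cells, -0.046 after thinning and 0.0011 with the members used for clustering, and Vcam1 (0.32) was 0.20 without doublets. The difference of 14.1 points in venous cells with Vwf was 2.28 points without thinning. Genes past the fold numbered 284 in EC-like cells and 45 with a fold of 2. In venous EC-like cells they numbered 937, with 451 at a minimum of 100 UMIs and 114 with a fold of 2. The sign turned for Selp without its 3 highest cells in arterial EC-like (-0.21) and tenocyte-like cells (-0.0082), without doublets for Selp (-0.27) and Ackr1 (-0.010) in macrophage-like cells, for Sele in T/NK-like cells without doublets (-0.17), after thinning (-0.019) and without 3 cells (-0.083), and for Vcam1 there without doublets (-0.077) and without 3 cells (-0.015). The cause was not tested. The median ratio of all genes was above 0.1 in low-UMI cluster 8 (0.11) and FAP cluster 2 (0.12).

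No paired analysis was possible because each group holds 1 library, and leaving out a replicate was not possible for the same reason. Library, mice and treatment cannot be told apart. Capillary cells, with medians of 2971 and 2999 UMIs, limit what can be seen of rare members, and Icam2 rests on 1771 UMIs in all.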
